A study of Mus musculus with 6 samples.

Results

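The genes described here decide where pyruvate and lactate go once glycolysis has made them. They are 10 of the 24559 genes in the deposited table and were grouped by function, with earlier results of these data known. Slc16a1 and Slc16a3 carry lactate across the plasma membrane, Mpc1 and Mpc2 carry pyruvate into mitochondria, Pdha1 and Pdhb encode the first enzyme of the pyruvate dehydrogenase complex, Pdk1 and Pdk3 encode kinases that switch that complex off, and Pdp1 and Pdpr encode subunits of the phosphatase that switches it on. RNA sequencing was done on CD8+ T cells, lymphocytes that can kill tumour cells and infected cells, from the spleen of C57 BL/6 wt mice, labelled as a primary culture. One group of 3 libraries came from cells given L-4F, a short amphipathic peptide made to mimic apolipoprotein A1 of high-density lipoprotein, and the other 3 libraries came from cells given ABCT Buffer. The sources used here give no dose, time in culture, T cell stimulation or mouse age. Whether each library had its own mouse or culture is also not said, and p-values therefore cover the spread among these samples alone, which could be technical. The series title places the study in the HIF-1α and glycolysis pathway, and its comparison asks what an apolipoprotein A1 mimetic does to CD8+ T cells.

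Pyruvate is the end product of glycolysis and stands at a fork. Lactate dehydrogenase can reduce it to lactate, which leaves the cell with a proton through monocarboxylate transporters, or the mitochondrial pyruvate carrier, a heterodimer, can bring it into the matrix, where the pyruvate dehydrogenase complex turns it into acetyl-CoA for the citric acid cycle. Pyruvate dehydrogenase kinases phosphorylate the E1 alpha subunit and stop the complex, and pyruvate dehydrogenase phosphatases remove the phosphate. Activated T cells are known for making lactate even when oxygen is present, and HIF-1α, a transcription factor stabilised by low oxygen and by T cell activation, is known to raise Pdk1 and Slc16a3 transcription.

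Promoter sequence is shown for 4 of the genes because the series title names HIF-1α: the main and the minor lactate transporter, the kinase known as a HIF-1α target, and the gene with the largest difference among the 10. HIF binds a core of the letters ACGTG or GCGTG. RefSeq promoter entries (GRCm38.p6) matched 9 of the 10 genes, all but Pdp1. The sequences run 5′ to 3′ on the gene's strand and end at the annotated RefSeq start or earlier, where a GENCODE M21 exon of the same gene begins. They cover chr3:104638414-104638663 (plus strand) for Slc16a1, chr11:120948817-120949052 (plus strand) for Slc16a3, chr2:71872974-71873223 (plus strand) for Pdk1 and chr8:111094495-111094629 (plus strand) for Pdpr. Capitals mark the core letters on either strand, so CACGT and CACGC are the core read on the other strand, and CACGTG, the E-box that MYC and related factors also bind, holds the core on both strands.
Slc16a1: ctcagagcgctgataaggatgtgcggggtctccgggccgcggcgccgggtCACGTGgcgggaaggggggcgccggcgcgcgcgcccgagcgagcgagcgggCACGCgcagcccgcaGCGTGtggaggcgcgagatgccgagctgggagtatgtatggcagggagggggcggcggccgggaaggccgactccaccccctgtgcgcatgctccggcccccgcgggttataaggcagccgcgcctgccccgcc
Slc16a3: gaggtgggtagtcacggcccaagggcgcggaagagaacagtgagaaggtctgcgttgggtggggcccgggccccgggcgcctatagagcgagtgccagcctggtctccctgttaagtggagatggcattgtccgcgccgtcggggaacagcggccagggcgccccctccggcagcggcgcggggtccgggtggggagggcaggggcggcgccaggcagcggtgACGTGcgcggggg
Pdk1: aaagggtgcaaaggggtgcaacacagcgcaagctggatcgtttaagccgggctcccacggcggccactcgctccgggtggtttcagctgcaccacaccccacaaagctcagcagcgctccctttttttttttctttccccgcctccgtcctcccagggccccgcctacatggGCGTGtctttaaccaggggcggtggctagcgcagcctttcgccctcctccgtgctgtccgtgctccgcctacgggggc
Pdpr: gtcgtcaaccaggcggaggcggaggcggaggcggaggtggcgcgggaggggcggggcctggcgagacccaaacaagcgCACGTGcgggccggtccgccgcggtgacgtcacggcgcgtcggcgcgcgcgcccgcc

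In the 250 bases before the start, the first listed entry of 9 of the 9 genes held ACGTG or GCGTG on either strand, against 38.6% of the first entries of all 27025 genes in the table. The second entries of Mpc1 and Pdk1 held none. These counts used the whole 250 bases, which can include GENCODE M21 exons of the same gene. The first-entry windows held 250 such exon bases for Mpc2, 115 for Pdpr, 51 for Pdk3, 33 for Pdhb, 25 for Mpc1 and 14 for Slc16a3. The match of Mpc2 therefore lies in an annotated exon. ACGTG was present in 5 first entries and GCGTG in 7, against 16.6% and 28.2% of all genes. CACGTG, which contains ACGTG, was present before Slc16a1 and Pdpr, against 6.05% of all genes. The 9 first entries had a GC content of 61.6% to 78.4% (median 67.6%), against a median of 52.4% over all promoters, and both core spellings are rich in G and C. A match is a stretch of letters only. It was shared by genes that were higher, lower and not called after L-4F.

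Against buffer, L-4F cells had more Mpc1, Mpc2 and Pdhb mRNA and less Pdpr mRNA, and the other 6 genes did not pass the test. Pdpr fell by 43.9% (1.78-fold), while the 3 genes that rose did so by 12.9% to 21.3%. The tests were made with limma on log2 values over 14922 genes, a gene was called at a Benjamini-Hochberg adjusted p under 0.05, and all adjusted p-values for genes below come from that fit. All 10 genes passed its filter on low values. Calling 4 of 10 genes (40.0%) is close to the share of all tested genes that were called, 38.2%, with 18.4% called higher and 19.7% called lower. Groups that do not overlap were found for 3 of the 10 genes above and 1 below buffer, against 23.2% and 24.4% of all tested genes. The median log2 fold change of the 10 genes was 0.06 and that of all tested genes was -3.66e-05. The number of changes among these genes is therefore near the background, and the description turns on which gene changed and how far. Fold changes also followed transcript length over all genes, so each gene's principal transcript length (that of the annotated main form) is given with its position, and calls that change when the length trend is removed are named. In RNA from a whole culture, fewer cells of a type and less RNA per cell cannot be told apart.

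**Figure D1:**
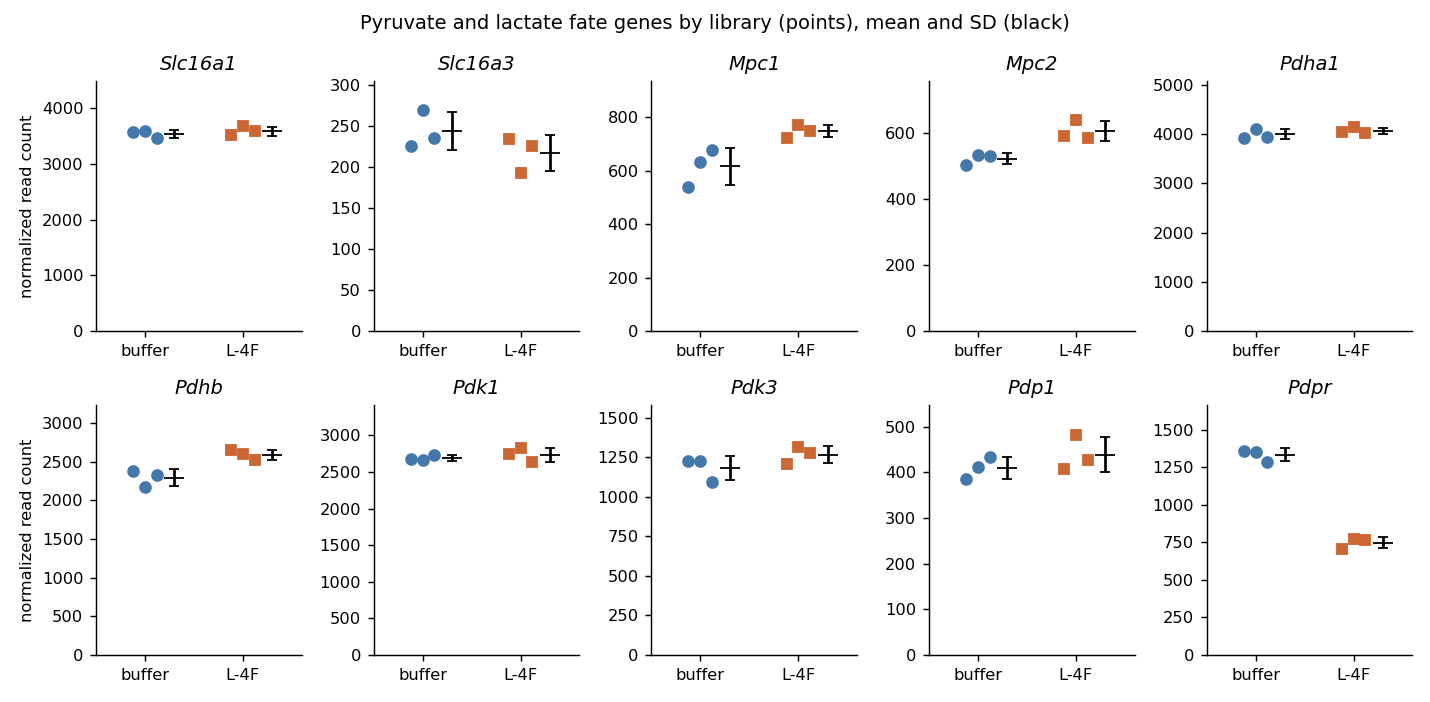
Normalized read count (vertical axis, from 0) of each of the 10 genes in the 3 buffer libraries (circles) and the 3 L-4F libraries (squares), with mean and SD in black. The groups lie apart for Mpc1, Mpc2 and Pdhb, where L-4F is above, and for Pdpr, where L-4F is below at 707.4 to 770.9 against 1283 to 1361.

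The main lactate transporter did not pass the test on the deposited values. Slc16a1 encodes MCT1, which moves lactate in either direction and in T cells serves both export and uptake (ENSMUSG00000032902, GRCm38 chr3:104638668-104658462, principal transcript 4426 nt). Its normalized counts were 3583, 3585 and 3465 in buffer libraries 1 to 3 and 3513, 3674 and 3588 in L-4F libraries 1 to 3. The groups overlap, and the means of 3544 ± 68.3 and 3592 ± 80.6 (SD, n = 3 each) are less than 1 SD apart. The log2 fold change was 0.02 (SE 0.032, adjusted p = 0.684), with a 95% interval of -0.05 to 0.09 (0.967-fold to 1.06-fold). Median centring gave -0.02, and Slc16a1 was called higher with the trend in principal (0.12, adjusted p = 0.00649) or longest transcript length removed (0.09, adjusted p = 0.0341). With the trend in summed exon length removed it was not called (0.02, adjusted p = 0.632).

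Slc16a3 encodes MCT4, the low-affinity exporter of highly glycolytic cells (ENSMUSG00000025161, GRCm38 chr11:120948480-120960868, 4335 nt). Normalized counts were 226.5, 269.8 and 236.1 with buffer and 234.7, 192.7 and 225.8 with L-4F, or 244.1 ± 22.7 against 217.7 ± 22.1 (SD, n = 3). L-4F library 2 was the lowest and the groups overlap. The log2 fold change of -0.17 (SE 0.111, 95% interval -0.40 to 0.07, adjusted p = 0.265) rests on 194 to 286 reads per library and is the least precise of the 10.

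Monocarboxylate transporters need a glycoprotein partner, basigin (Bsg) or embigin (Emb), to reach the cell surface, and both partner mRNAs rose on the deposited values. With the trend in principal transcript length removed Emb was still higher (0.27, adjusted p = 1.91e-07) and Bsg was not called (0.03, adjusted p = 0.512). Emb, the preferred partner of MCT2, had normalized counts of 6598, 6927 and 6884 with buffer and 7909, 8356 and 8236 with L-4F. All L-4F libraries were above all buffer libraries, at a log2 fold change of 0.26 (SE 0.028, adjusted p = 1.48e-07). Bsg, the usual partner of MCT1 and MCT4, went from 4503 ± 145 to 5050 ± 171 (SD, n = 3), a log2 fold change of 0.17 (SE 0.033, adjusted p = 0.000312). Slc16a7, which encodes MCT2, was near the detection limit at 0 to 16 reads per library and was not called (log2 fold change -1.77, SE 0.740, adjusted p = 0.0685).

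Both subunits of the mitochondrial pyruvate carrier rose by similar amounts. The carrier is an inner membrane heterodimer that sets how fast pyruvate enters the matrix, and each subunit is unstable without the other. For Mpc1 (ENSMUSG00000023861, GRCm38 chr17:8282904-8297661, 958 nt) the normalized counts were 540.2, 632.0 and 675.4 with buffer and 723.0, 770.9 and 748.0 with L-4F. Every L-4F library was above every buffer library, and buffer library 1 was the lowest of the 6. The means of 615.8 ± 69.0 and 747.3 ± 24.0 (SD, n = 3) gave a log2 fold change of 0.28 (SE 0.075, 95% interval 0.13 to 0.44, adjusted p = 0.00437). It was not called with the trend in principal, longest or exon length removed (0.08, 0.07 and 0.15, adjusted p = 0.505, 0.524 and 0.159) or with a constant spread (adjusted p = 0.0711).

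Mpc2 (ENSMUSG00000026568, GRCm38 chr1:165460637-165481214, 1025 nt) had normalized counts of 502.3, 532.0 and 531.0 with buffer and 591.8, 638.8 and 585.7 with L-4F. The buffer libraries lie close together and all L-4F libraries are above them, with means of 521.8 ± 16.9 and 605.4 ± 29.1 (SD, n = 3). The log2 fold change was 0.21 (SE 0.070, 95% interval 0.07 to 0.36, adjusted p = 0.0187). This call was lost with the trend in principal transcript length removed (0.02, adjusted p = 0.907), without buffer library 1 (adjusted p = 0.0813) and without L-4F library 2 (adjusted p = 0.0877). It was also lost when the libraries were centred on the same median level (log2 fold change 0.17, adjusted p = 0.0530). That centring moved the median log2 fold change of all genes to -0.04. The Mpc2 call was kept with the trend in longest transcript (0.26, adjusted p = 0.00778) or summed exon length removed (0.33, adjusted p = 0.00105). Summed per kilobase of transcript, carrier mRNA was 19% higher with L-4F, and Mpc1 made up 53.5% to 57.6% of it with buffer and 56.4% to 57.7% with L-4F. With the longest annotated transcript as the length, which for Mpc2 is a retained intron, these shares were 81.8% to 84.2% and 83.4% to 84.2%.

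Of the 2 genes for the E1 heterotetramer, the decarboxylating enzyme of the complex, the beta subunit rose and the alpha subunit did not pass the test. Pdhb (ENSMUSG00000021748, GRCm38 chr14:8165996-8173025, 1513 nt) had normalized counts of 2379, 2169 and 2333 with buffer and 2652, 2595 and 2520 with L-4F, again with no overlap. The means of 2294 ± 111 and 2589 ± 66.2 (SD, n = 3) gave a log2 fold change of 0.18 (SE 0.041, 95% interval 0.09 to 0.26, adjusted p = 0.00145). It was not called with the trend in principal (0.04, adjusted p = 0.504) or longest transcript length removed (0.10, adjusted p = 0.0655), or with a constant spread (adjusted p = 0.0502). With the trend in summed exon length removed Pdhb was still called higher (0.15, adjusted p = 0.0067). Pdha1, whose product carries the serines that the kinases phosphorylate (ENSMUSG00000031299, GRCm38 chrX:160122209-160138413, 2848 nt), had normalized counts of 3914, 4105 and 3946 with buffer and 4030, 4132 and 4008 with L-4F. These overlap, with means of 3989 ± 102 and 4057 ± 65.9 (SD, n = 3) and a log2 fold change of 0.02 (SE 0.031, 95% interval -0.04 to 0.09, adjusted p = 0.576). The sign turned when the libraries were centred on the same median level (-0.02). An antisense gene, Map3k15, shares 603 exon bases with Pdha1 at a mean normalized count of 81.5, and no source used here says whether the authors counted by strand.

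The remaining core subunits were not called on the deposited values. Dlat (E2), Dld (E3) and Pdhx (the E3-binding protein) had log2 fold changes of -0.06, 0.08 and -0.14 (adjusted p = 0.399, 0.117 and 0.113). Pdhx lay below buffer in all L-4F libraries, at 522.4 ± 23.5 against 576.4 ± 1.98 (SD, n = 3), and was called lower with the trend in longest transcript length removed (-0.20, adjusted p = 0.0334) but not with that in principal length (-0.17, adjusted p = 0.0726).

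The kinase mRNAs did not pass the test on the deposited values. Pdk1 encodes the kinase that phosphorylates all regulatory serines of E1 alpha (ENSMUSG00000006494, GRCm38 chr2:71873224-71903858, 5185 nt). Its normalized counts were 2683, 2663 and 2733 with buffer and 2740, 2832 and 2634 with L-4F. L-4F libraries 2 and 3 were the highest and the lowest of the 6, so the groups overlap, with means of 2693 ± 36.2 and 2735 ± 99.2 (SD, n = 3). The log2 fold change was 0.02 (SE 0.037, 95% interval -0.05 to 0.10, adjusted p = 0.678), and it turned to -0.02 with median centring and to -0.0036 without L-4F library 2. With a length trend removed Pdk1 was called higher, at 0.17 for principal transcript (adjusted p = 0.0015), 0.14 for longest transcript (adjusted p = 0.00466) and 0.15 for exon length (adjusted p = 0.00374).

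Pdk3 encodes a second kinase isoform, from the X chromosome (ENSMUSG00000035232, GRCm38 chrX:93764607-93832201, 2115 nt). Normalized counts were 1228, 1224 and 1095 with buffer and 1209, 1316 and 1275 with L-4F, overlapping because of L-4F library 1, with means of 1183 ± 75.9 and 1267 ± 54.1 (SD, n = 3). The log2 fold change was 0.10 (SE 0.055, 95% interval -0.01 to 0.22, adjusted p = 0.165). Of the other isoforms, Pdk2 had a log2 fold change of -0.13 (adjusted p = 0.524), and Pdk4, the isoform induced by fasting, had 0 to 6 reads per library and was not tested. Per kilobase of transcript Pdk1 and Pdk3 together made up nearly all kinase mRNA, with Pdk1 at 44.5% to 46.9% and Pdk3 at 46.1% to 50.1% in buffer libraries, and 43.5% to 45.0% and 48.7% to 51.6% in L-4F libraries.

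Pdpr was the gene with the largest difference among the 10. It encodes the regulatory subunit of pyruvate dehydrogenase phosphatase, which has no catalytic activity of its own and lowers the sensitivity of the PDP1 enzyme to magnesium (ENSMUSG00000033624, GRCm38 chr8:111094630-111137074, 4938 nt). Normalized counts were 1361, 1354 and 1283 with buffer and 707.4, 770.9 and 764.7 with L-4F. The lowest buffer library stood far above the highest L-4F library, with means of 1332 ± 43.1 and 747.7 ± 35.0 (SD, n = 3). The log2 fold change was -0.83 (SE 0.056, 95% interval -0.95 to -0.72, adjusted p = 1.1e-10). It was called under all 18 other settings tried, at -0.87 to -0.70. A lower log2 fold change was found for 330 of the 14922 tested genes. An antisense gene, 9430091E24Rik, shares 169 exon bases with Pdpr at a mean normalized count of 54.6, which is small beside the difference between the groups.

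The catalytic subunits did not move with Pdpr to the same extent. Pdp1 encodes the calcium-activated catalytic subunit (ENSMUSG00000049225, GRCm38 chr4:11958184-11966452, 4201 nt) and had normalized counts of 386.0, 412.2 and 434.1 with buffer and 407.1, 481.8 and 427.6 with L-4F. The groups overlap, at 410.8 ± 24.1 and 438.8 ± 38.6 (SD, n = 3), and the log2 fold change was 0.09 (SE 0.085, 95% interval -0.08 to 0.27, adjusted p = 0.419). Pdp2, which encodes the calcium-independent catalytic subunit, fell: normalized counts were 1145, 1123 and 1154 with buffer and 1037, 1027 and 911.3 with L-4F, without overlap, at a log2 fold change of -0.20 (SE 0.057, adjusted p = 0.00668). This call was lost with the trend in its principal transcript length (5692 nt) removed (-0.03, adjusted p = 0.734). Of the phosphatase mRNA per kilobase, Pdpr made up 45.9% to 48.5% in buffer libraries and 33.9% to 37.2% in L-4F libraries.

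**Figure D2:**
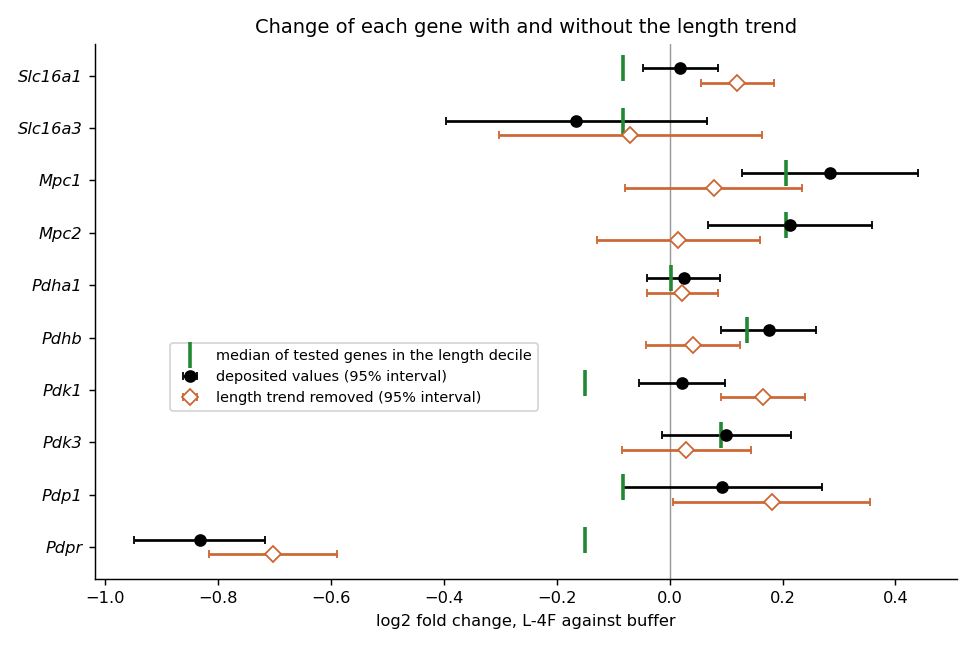
Log2 fold change, L-4F against buffer (horizontal axis), of each gene on the deposited values (black circles) and after the trend in principal transcript length was removed from each library (open diamonds), with 95% intervals, and the median of all tested genes of similar principal transcript length (green bars). Pdpr stands at -0.83 and -0.70, Mpc1, Mpc2 and Pdhb move toward 0 when the trend is removed, and Slc16a1 and Pdk1 move above it.

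Fold changes in these libraries varied with transcript length over all genes, and the 10 genes differ in length. When tested genes were split into 10 classes by the length of the principal transcript, the class of shortest genes had a median of 0.21 and the class of longest genes a median of -0.28. In the former 28.2% were called higher and 4.96% lower, and in the latter 1.88% and 64.5%. The 3 genes that rose have principal transcripts of 958 nt (Mpc1), 1025 nt (Mpc2) and 1513 nt (Pdhb), and the medians of their length classes were 0.21, 0.21 and 0.14. Their log2 fold changes of 0.28, 0.21 and 0.18 thus lie near those of other genes of their length. Pdpr, at 4938 nt, is in a class with a median of -0.15, and 26 of the 1491 genes in that class had a lower log2 fold change.

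Removal of the trend in principal transcript length was chosen after seeing the data. With that trend removed from each library, Mpc1, Mpc2 and Pdhb were no longer called. Pdpr remained lower, at -0.70 (adjusted p = 2.83e-09), and 538 of 14910 genes then had a lower value. Pdk1 (5185 nt) and Slc16a1 (4426 nt), which lie in classes with medians of -0.15 and -0.08, were called higher. Of the other genes of the 10, none was called, and Pdp1 stood at 0.18 (adjusted p = 0.129), Slc16a3 at -0.07 (0.708), Pdk3 at 0.03 (0.760) and Pdha1 at 0.02 (0.651). With the trend removed 25.7% of all genes were called, 13.0% higher and 12.6% lower.

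The length assigned to a gene matters for the calls of Mpc2, Pdhb and Slc16a1. The longest annotated transcript of Mpc2 (4015 nt) is a retained intron. With the longest transcript as the length Mpc2 was called higher at 0.26 (adjusted p = 0.00778), while Mpc1 and Pdhb were not called, and 26.4% of all genes were called. With summed exon length Mpc2 (0.33, adjusted p = 0.00105) and Pdhb (0.15, adjusted p = 0.0067) were called higher. Mpc1 and Slc16a1 were then not called (adjusted p = 0.159 and 0.632). Why the libraries of the groups differed by transcript length was not tested.

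**Figure D3:**
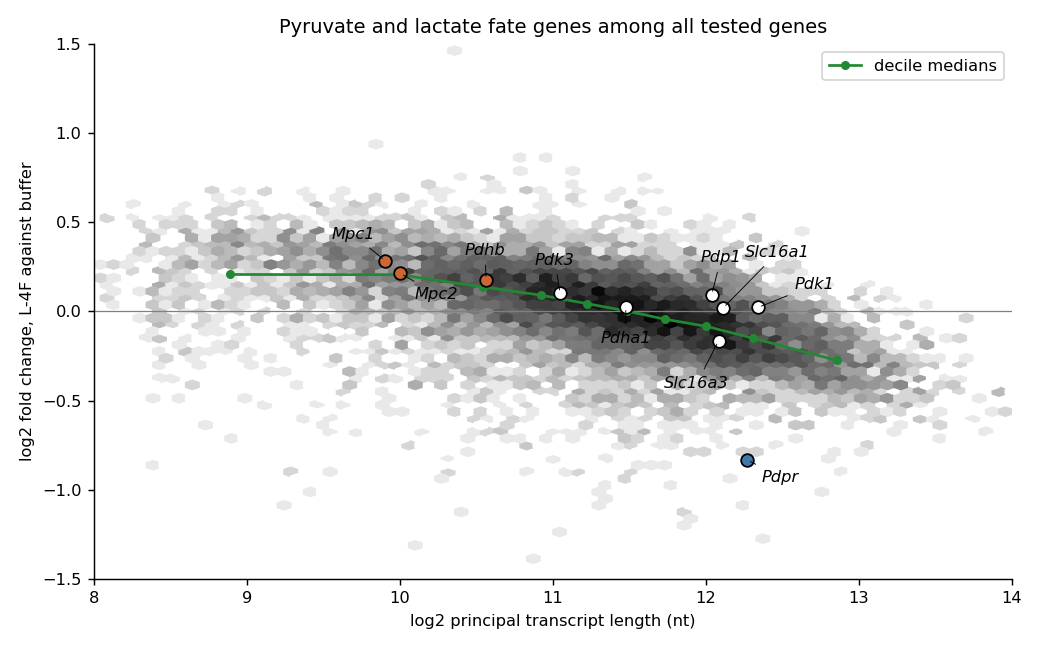
Log2 fold change, L-4F against buffer (vertical axis), against log2 of the principal transcript length in nt (horizontal axis). Grey hexagons hold all tested genes, darker where there are more (genes outside the axes are not drawn), the green line joins the medians of 10 length classes, and circles are the 10 genes (orange called higher, blue called lower, white not called). Mpc1, Mpc2 and Pdhb lie close to the line on the left, and Pdpr lies far below it.

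Levels can be compared between genes only per length. In normalized counts per kilobase of principal transcript, the order in buffer libraries was Pdhb (1516), Pdha1 (1400), Slc16a1 (801), Mpc1 (643), Pdk3 (559), Pdk1 (519), Mpc2 (509), Pdpr (270), Pdp1 (97.8) and Slc16a3 (56.3). The ranges of Pdhb and Pdha1 overlap, and each of Mpc1, Pdk3 and Pdk1 overlaps the next in that order. The other neighbours were separated in all 3 libraries. In L-4F libraries Pdhb (1711) was above Pdha1 (1424) without overlap, Mpc1 (780) overlapped Slc16a1 (811), and Mpc2 (591) overlapped Pdk3 (599) and was above Pdk1 (528). The order rests on the length assigned: with the longest annotated transcript, Pdha1 was above Pdhb without overlap, at 34.9% to 37.7% against 23.9% to 25.4% of the core subunits' mRNA per kilobase with buffer and 35.0% to 35.1% against 26.4% to 27.7% with L-4F. Pdpr was at 151 per kilobase of principal transcript, still above Pdp1 at 104.5 in all libraries. Among the lactate transporters Slc16a1 held 92.7% to 93.9% of the mRNA per kilobase with buffer and 93.5% to 94.9% with L-4F, and Slc16a3 nearly all of the rest.

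**Figure D4:**
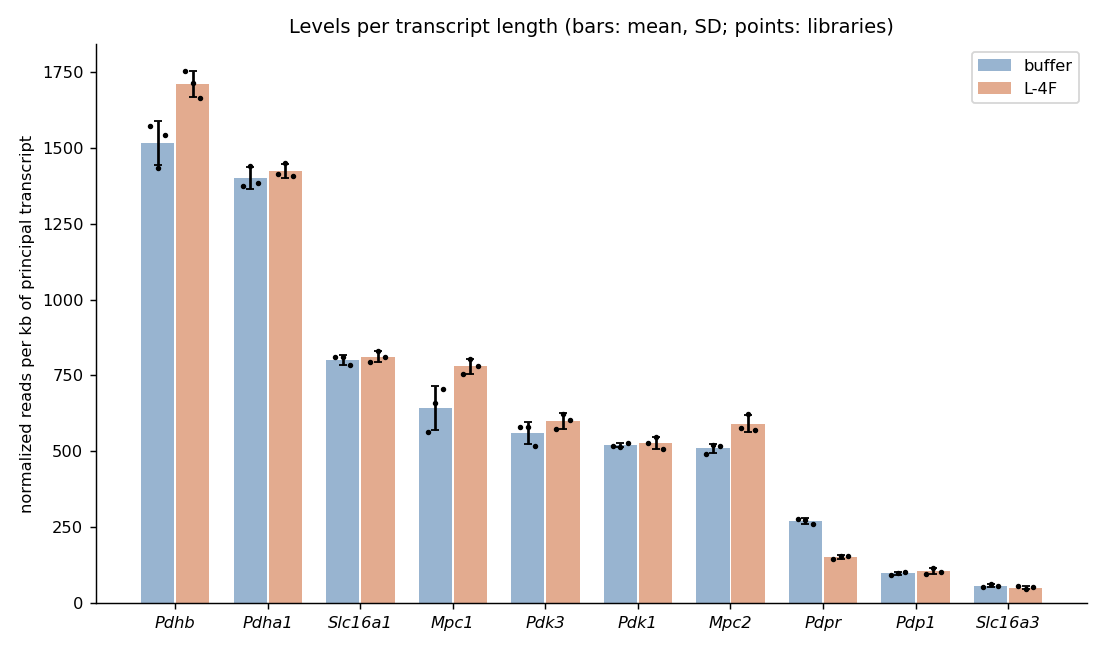
Normalized read count per kilobase of principal transcript (vertical axis, from 0) for the 10 genes, ordered by the buffer mean; bars are means, error bars SD and points the 3 libraries of each group. The subunits of E1 are the most abundant and Slc16a3 the least, and Pdpr drops from 270 to 151.

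Ratios of paired gene products within a library do not depend on how the libraries were scaled. Of 6 ratios compared, that of Pdp1 to Pdpr differed most: it was 0.284, 0.305 and 0.339 in buffer libraries and 0.576, 0.625 and 0.560 in L-4F libraries. The log2 ratio went from -1.70 ± 0.13 to -0.77 ± 0.08 (SD, n = 3), a difference of 0.93 (two-sided exact permutation p = 0.1, which is the lowest possible with 3 against 3, and 0.3 adjusted over the 6 ratios). The log2 ratio of Pdha1 to Pdhb went from 0.80 ± 0.11 to 0.65 ± 0.04 (SD, n = 3) without overlap, with the same exact permutation p. Its difference was -0.15 on the deposited values, -0.02 with the principal and -0.11 with the longest transcript length trend removed.

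The other 4 ratios overlapped between the groups. Differences in log2 ratio were 0.07 for Mpc1 to Mpc2, 0.18 for Slc16a1 to Slc16a3, -0.08 for Pdk1 to Pdk3 and -0.07 for Pdk1 to Pdp1, with exact permutation p = 0.4, 0.2, 0.4 and 0.4.

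The wider pathway was read from 9 lists with 57 genes, the 10 included, of which 51 were in the table and 48 were tested. Of the 48, 14 were higher, 5 lower and 29 not called, with a median log2 fold change of 0.08. The share called, 39.6%, is near the 38.2% of all tested genes. Without the 10 genes, 11 of 38 were higher and 4 lower (39.5% called). The genes called higher have principal transcripts of 958 to 3405 nt and those called lower of 4021 to 5692 nt, and 7 were higher and 2 lower with the trend in that length removed. These 9 were Acss2, Bckdha, Bckdk, Emb, Glrx5, Pdk1 and Slc16a1 higher, and Acly and Pdpr lower.

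Upstream of the fork, Ldha, the lactate dehydrogenase subunit that favours lactate formation, rose by a log2 fold change of 0.14 (adjusted p = 1.21e-06), which became 0.03 (adjusted p = 0.140) with the principal length trend removed. Ldhb, Ldhd and Pkm, the pyruvate kinase of these cells, had log2 fold changes of 0.22, 0.19 and 0.02 (adjusted p = 0.0629, 0.5 and 0.293), and Ldhc was not tested. Of 5 other enzymes that use or make pyruvate none was called, and the pyruvate carboxylase gene Pcx was at -0.20 (adjusted p = 0.163) and the alanine aminotransferase gene Gpt at 0.27 (adjusted p = 0.164).

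Downstream of the complex, Acly, which turns exported citrate into cytosolic acetyl-CoA, fell from 10464 to 8732 mean normalized counts (log2 fold change -0.26, adjusted p = 3.04e-08, and -0.16 with the length trend removed, adjusted p = 4.84e-05). Acss2, which makes acetyl-CoA from acetate, rose at 0.22 (adjusted p = 0.0148), the same size with the length trend removed (adjusted p = 0.0200). Crat, the carnitine acetyltransferase gene, was not called (0.10, adjusted p = 0.534).

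Lipoate is the swinging arm of E2, and 4 of the 8 tested genes of its assembly rose and 1 fell, against 18.4% and 19.7% of all tested genes. The median principal transcript of the list is 1792.5 nt, and 26.6% of all genes in that length class were called higher. Mcat, of mitochondrial fatty acid synthesis, was at 0.36 (adjusted p = 0.00667), the iron-sulfur cluster carriers Glrx5 at 0.34 (adjusted p = 0.000592), Nfu1 at 0.23 (adjusted p = 0.00429) and Bola3 at 0.24 (adjusted p = 0.0175), and Iba57 fell by 0.28 on the log2 scale (adjusted p = 0.0295). With the principal length trend removed Glrx5 alone of these passed the test (0.34, adjusted p = 0.00101), and with the longest transcript as the length Nfu1 passed as well (0.17, adjusted p = 0.0435).

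In the sister complexes, 3 of 7 tested genes rose and 1 fell, against the same 18.4% and 19.7%. Bckdha and Bckdhb, the E1 subunits of the branched-chain 2-oxoacid dehydrogenase complex, were at 0.41 (adjusted p = 0.000285) and 0.35 (adjusted p = 0.00994), its inhibitory kinase gene Bckdk was at 0.21 (adjusted p = 0.00186), and Ogdh of the 2-oxoglutarate complex fell by 0.14 on the log2 scale (adjusted p = 0.0034). Bckdha (0.31, adjusted p = 0.00519) and Bckdk (0.24, adjusted p = 0.000725) also passed with the length trend removed.

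**Figure D5:**
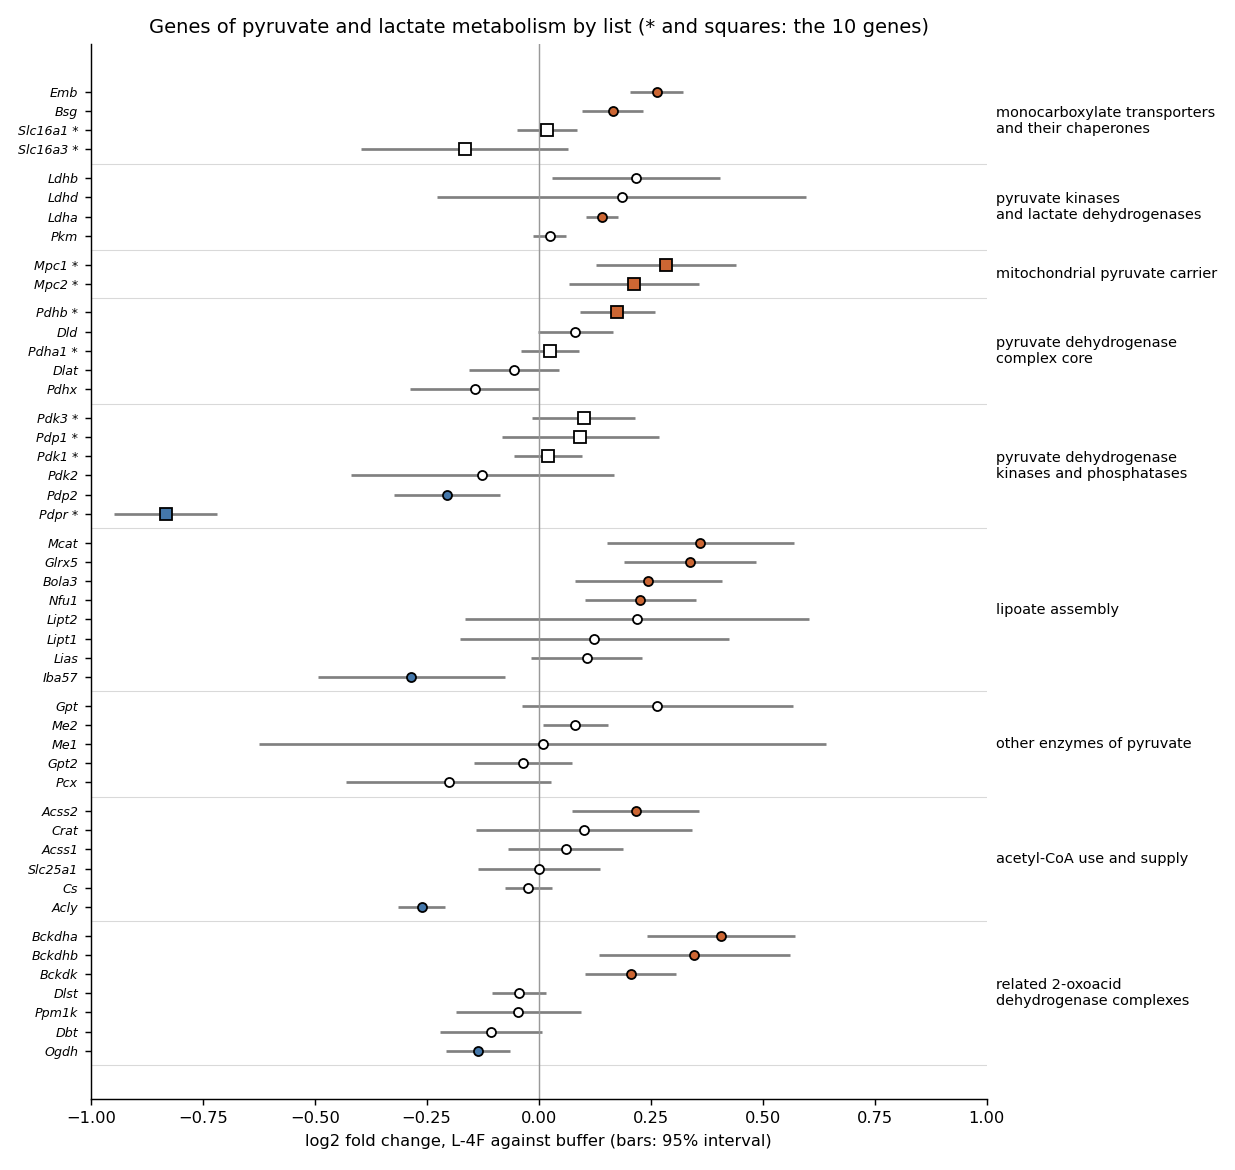
Log2 fold change with 95% interval, L-4F against buffer (horizontal axis), of the tested pathway genes by list, without Slc16a7, whose mean is under 20 normalized counts; squares are the 10 genes, orange called higher, blue called lower, white not called. Pdpr is the lowest value drawn, and both carrier subunits and 4 lipoate assembly genes are orange.

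The tested genes whose pattern over the 6 libraries was most like that of each gene were found by the Euclidean distance between log2 values centred on each gene's mean, among genes with a mean normalized count of at least 100. Pdpr was nearest to Gprin3 (distance 0.063, log2 fold change -0.86), followed by the predicted genes Gm43197 and Gm47798. Mpc2 was nearest to Bckdk (distance 0.033), one of the pathway genes above, and then to Chmp1a and Cib1. With the trend in principal transcript length removed Bckdk was still called higher and Mpc2 was not called. Mpc1 was nearest to Tmem176b (distance 0.038), and Pdhb to Chkb (distance 0.032). For 5 of the 6 genes that were not called the nearest were Sgpl1 for Slc16a1, Sfxn2 for Slc16a3, Hspd1 for Pdha1, Med27 for Pdk3 and Mr1 for Pdp1.

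The libraries held 25073292 to 31332003 reads. The 6 CD8 T cell markers (Cd8a, Cd8b1, Cd3d, Cd3e, Cd3g and Trac) summed to 2719 to 2727 CPM with buffer and 3069 to 3141 with L-4F, and 5 of the 6 were called higher. Markers listed for other cells were low, and several lists moved with the group. Natural killer cell markers summed to 41.0 to 43.2 CPM with buffer and 52.3 to 56.4 with L-4F (3 of 5 called higher). Most of these counts came from Gzma and Klrb1c, and Ncr1 and Klra8 were not called (adjusted p = 0.225 and 0.986). Erythroid and platelet markers summed to 46.4 to 49.0 and 62.9 to 66.6 CPM (4 of 4 tested called higher). B cell markers summed to 8.0 to 9.35 and 10.97 to 12.2 CPM (1 of 4 tested higher), and dendritic cell markers to 3.06 to 3.66 and 2.02 to 2.36 CPM (the 1 tested, Zbtb46, lower). Myeloid markers summed to 54.4 to 64.2 and 59.0 to 61.2 CPM (S100a8 and S100a9 of 7 higher), and CD4 T cell markers to 7.90 to 8.23 and 7.42 to 8.97 CPM (Cd4 lower). Foxp3, of the CD4 T cell list, lay above buffer in all L-4F libraries but was not called (log2 fold change 0.33, adjusted p = 0.0596). With the trend in principal transcript length removed, Trac, Klrb1c, Klra4, Hba-a1 and Hbb-bs were not called (adjusted p = 0.165, 0.0549, 0.158, 0.153 and 0.116). The other markers called on the deposited values kept their calls. Cd3e was then called lower (-0.09, adjusted p = 0.0341) and Foxp3 higher (0.39, adjusted p = 0.0342). No marker in the table was at 0 in every library. The part of these cells in the differences of the 10 genes was not tested.

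The authors' deposited table called the same 4 genes at a deposited FDR under 0.05, as it did 5219 genes in all. The deposited FDR was 8.05e-42 for Pdpr, 0.000307 for Pdhb, 0.00275 for Mpc1 and 0.0304 for Mpc2.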

How the data were processed

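RNA was sequenced from CD8+ T cell cultures, 3 libraries with L-4F and 3 with ABCT Buffer, grouped by title. Per the labels' protocols, libraries were strand-specific. StringTie 1.3.1c and FastQC 0.11.2 and 0.11.5 appear in the submitters' processing notes. The sources used here give no aligner and no build. The deposited log2 values are log2 of (reads over a library factor) + 1, worked out from the values, which return whole reads within 0.01 read. The deposited p-value and FDR come from the authors' own test.

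The 14922 genes reaching a normalized count of 10 in 3 or more libraries were tested on the log2 values with limma 3.58.1 (R 4.3.3; trended, robust spread; group as the only term; Benjamini-Hochberg over all genes). Fold changes are therefore differences of log2(normalized count + 1), which understates low genes. Intervals (95%) come from that fit. Length trends (loess, span 0.3) used GENCODE M21 lengths on GRCm38, which may differ from the authors' annotation. The limma step was tested on simulated reads that held no length trend, so the removal of length trends was not covered.

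Members and gene lists were chosen with earlier results of these data known. Named are all 10 genes, all genes of the 5 lists of the same step or complex, up to 3 genes with the smallest adjusted p of each other list, and the nearest genes by profile, of which that of Pdk1 is not reported here. The listed genes Slc5a8, Slc5a12, Slc16a8, Pklr, Pdha2 and Me3 were not analysed here. Scaling, filter, spread, pseudocount, read-level test, replicate block, length and each library were varied.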

Additional observations from a re-analysis of the deposited data

How the results depend on the processing

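Other settings were median centring, scaling by total reads, no filter, a filter at 10 CPM, a constant prior spread, limma-voom on recovered reads, a pseudocount of 0.1, the replicate block, removal of a trend in longest transcript or exon length, the block with the former, removal of the trend in principal transcript length (chosen after seeing the data), and each library left out. Pdpr kept its call under all 18.

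Among the 10 genes 1 was called higher with the constant spread (adjusted p = 0.0711 for Mpc1 and 0.0502 for Pdhb), and 2 to 3 higher and 1 lower with a library left out. Over all genes 3742 were called with the block and the longest transcript trend removed, and 4805 to 5360 with a library left out. Median centring moved the median log2 fold change of all genes to -0.04, and 37.3% of its called genes were higher, against 48.2%. Of the pathway genes, those higher numbered 9 (longest transcript), 8 (the same with the block), 7 (principal transcript) and 13 to 14 (a library left out). Those lower numbered 8 (median centring), 3 (constant spread), 3 (longest transcript), 3 (exon length), 3 (longest transcript with the block), 2 (principal transcript) and 4 to 5 (a library left out).

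Signs turned for Slc16a1 under median centring (-0.0214). They turned for Pdha1 under median centring (-0.0158), with longest transcript length without or with the block (-0.0101 in both) and with exon length (-0.0058). They turned for Pdk1 under median centring (-0.0186) and without L-4F library 2, and leaving out a library gave -0.0036 to 0.0488. The log2 ratio difference turned for Mpc1 to Mpc2 with longest transcript (-0.185) and exon length (-0.180), for Pdk1 to Pdk3 with longest transcript (0.14), exon (0.15) and principal transcript length (0.14), and for Pdk1 to Pdp1 with exon length (0.0441). The cause was not tested.

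Replicate numbers are shared by the groups, and no source used here says whether they mark pairs. Deviations of same-numbered libraries correlated at 0.05, 0.01 and 0.11, and those of differently numbered libraries at -0.08 to 0.03. Such low values cannot decide whether the libraries were paired. The main fit took no pairs, and the replicate number was added as a block in another setting. With the replicate block 5521 genes were called, 3 of the 10 were higher and 1 lower, and 14 pathway genes were higher and 5 lower. Slc16a3 has no value under the 10 CPM filter. Among the 10 genes depth limits Slc16a3 most, and of the related genes Pdk4 and Slc16a7 had fewer reads still. A count of 0 allows 0.0957 to 0.120 CPM (3 counts, counting error only).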
